A study of Mus musculus with 12 samples.

Results

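The 40 genes described here act from the end of G2 to the end of cell division. They were chosen by name, as well-known G2 and mitosis genes, with earlier results of these data known. All 40 were found among the 24411 gene symbols measured. Their RNA was measured by RNA-seq in NR5A1(+) cells of mouse fetal gonads, in 12 libraries and 5 groups. XY gonads cultured with 150 µM Dfo (the iron chelator deferoxamine) gave 3 libraries, XY gonads cultured without it 3 and XX gonads cultured without it 2, and E11.5 gonads gave 2 XY and 2 XX libraries. Cultures began at E10.8, with the aorta, mesonephros and mesenchyme left on the gonads, and lasted 19.2 h in DMEM with 10% horse serum. All 5 groups carried the same genotype, Nr5a1-hCD271, in which a human cell-surface protein is tied to Nr5a1. The titles of the E11.5 libraries also read WT, which those of the cultured libraries do not. The labels repeat the culture and Dfo text for the E11.5 groups and so leave unclear how those gonads were collected and whether they were cultured; below, cultured names the Dfo and control groups. No XX culture with Dfo was among the samples, so the effect of Dfo could be compared in XY only. The labels do not say whether replicates came from separate embryos, and p-values therefore measure only a spread between libraries, which may be technical.

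Entry into mitosis is driven by CDK1 bound to B-type cyclins, and is released when CDC25 phosphatases remove inhibitory phosphates from CDK1. PLK1 and the Aurora kinases then build the spindle, and the spindle checkpoint holds the cell in metaphase until the kinetochores of all chromosomes are attached. CDC20 and the anaphase-promoting complex, fed with ubiquitin by UBE2C, next destroy cyclin B and securin, after which the chromosomes part and the cell cleaves. Most of these genes are transcribed late in the cell cycle: the DREAM complex represses them in resting cells, and B-MYB and FOXM1 activate them later through a promoter element called the CHR. In the mouse, somatic cells of the gonad divide actively around the stage at which Sry starts testis development.

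The promoters are shown because the CHR is the element through which these genes are known to be switched together. The promoter table of RefSeq (build GRCm38.p6), with windows from 250 bases before to 50 bases after each start, held 33 of the 40 members. The CHR was searched as TTTGAA or TTCGAA on both strands, and the CCAAT box, which the factor NF-Y binds, as CCAAT on both strands. The 4 stretches below run from 150 bases before the start to 30 bases from it, with the letters of both motifs in capitals. Those of Ube2c, Ccnb2 and Cenpf belong to the 3 members with the smallest adjusted p with Dfo whose window held a CHR. That of Ccnb1 belongs to the member with the smallest adjusted p whose window held neither form searched. They lie at chr2:164769779-164769958 (plus strand), chr9:70421525-70421704 (minus strand), chr1:189688057-189688236 (minus strand) and chr13:100786457-100786636 (minus strand), in that order.
Ube2c: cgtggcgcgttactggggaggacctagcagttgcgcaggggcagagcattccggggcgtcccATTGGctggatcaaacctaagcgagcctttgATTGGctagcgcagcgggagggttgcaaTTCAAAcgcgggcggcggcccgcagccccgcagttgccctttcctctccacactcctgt
Ccnb2: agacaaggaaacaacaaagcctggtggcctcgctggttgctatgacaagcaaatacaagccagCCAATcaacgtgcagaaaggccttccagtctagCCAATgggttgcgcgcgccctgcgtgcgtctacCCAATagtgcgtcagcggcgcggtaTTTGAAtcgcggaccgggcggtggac
Cenpf: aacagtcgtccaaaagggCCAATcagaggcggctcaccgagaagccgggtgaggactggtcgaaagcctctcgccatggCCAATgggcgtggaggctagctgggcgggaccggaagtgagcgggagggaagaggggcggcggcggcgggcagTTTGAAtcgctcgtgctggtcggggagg
Ccnb1: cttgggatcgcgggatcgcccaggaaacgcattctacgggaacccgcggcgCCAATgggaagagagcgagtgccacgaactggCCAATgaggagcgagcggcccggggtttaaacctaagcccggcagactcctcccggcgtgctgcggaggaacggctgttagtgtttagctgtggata
The stretch of Ube2c held 2 CCAAT boxes, both on the opposite strand and read as ATTGG, followed by 1 CHR on the opposite strand, read as TTCAAA. The stretch of Ccnb2 held 3 CCAAT boxes and 1 CHR, and that of Cenpf 2 CCAAT boxes and 1 CHR, all on the strand of the gene. The stretch of Ccnb1 held 2 CCAAT boxes and neither TTTGAA nor TTCGAA. Other letters, such as the tttaaa in this stretch, were not searched, so the lack of a CHR holds for the forms searched only.

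A CHR stood in 25 of the 33 members' windows (75.8%), against 19.4% of the 27025 windows of all genes. A CCAAT box stood in 25 of the 33 (75.8%), against 37.9% of all windows. Both motifs stood together in 22 of the 33 (66.7%), against 7.70% of all windows. The CHR letters lay close to the start: 23 of the 33 members (69.7%) had them between 50 bases before the start and the end of the window, against 5.29% of all windows, a range chosen after the positions were seen. Of the 62 CCAAT boxes in the members, 58 lay before the start. With TTTGAA alone, the CHR was found in 23 members (69.7%) and in 18.1% of all windows. A CHR stood in 12 of the 15 members with a window that were lower with Dfo (80%) and in 13 of the 18 that were not called (72.2%). The letters are a description of these windows and not evidence of binding.

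**Figure D1:**
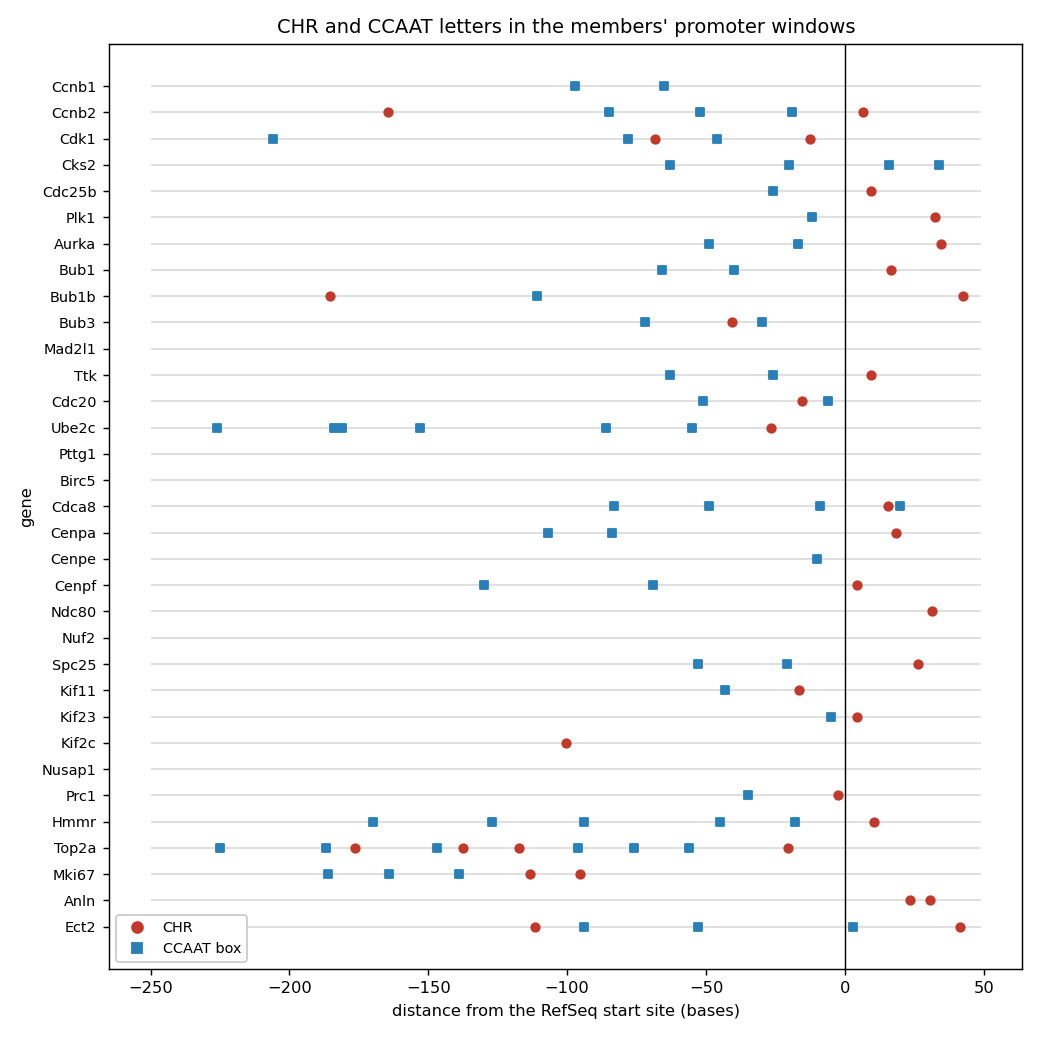
Positions of CHR letters (circles) and CCAAT letters (squares) in the promoter windows of the 33 members found in RefSeq, 1 row per gene, by distance in bases from the RefSeq start site at 0. Of the 34 CHR letters, 24 lie between 50 bases before the start and the end of the window, and 58 of the 62 CCAAT boxes lie before the start.

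The members' mean levels over the 12 libraries ran from 11.7 TPM for Cdc25c to 173 TPM for Top2a, and no member was listed at 0 in any library. TPM, transcripts per 1000000, is set to the same total in every library and keeps no record of sequencing depth, so depth is unknown. One RNA, Rpph1 (the RNA part of RNase P), took 23.6%, 23.2% and 19.5% of the total in the Dfo XY libraries, 19.3%, 20.3% and 15.3% in control XY, 7.20% and 6.96% in control XX, 12.2% and 12.02% in E11.5 XY and 8.57% and 11.47% in E11.5 XX, which lowers the TPM of all other genes most in cultured XY. Of the libraries labelled XY, 2 held Xist, the RNA that coats the inactive X chromosome of XX cells: Dfo XY replicates 1 and 2 had 13.6 and 24.6 TPM, against 0.01 to 0.90 TPM in the other XY libraries and 124 to 175 TPM in the XX libraries. Values without both are given at the end of the comparison with Dfo and beside the gene lists and markers. Replicates 1 and 2 of each cultured XY group were close to each other, with a median absolute difference of the members of 0.14 (Dfo XY) and 0.08 (control XY) on the log2 scale, while replicate 3 differed from them by 0.39 and 0.39 in Dfo XY and by 0.26 and 0.25 in control XY. NR5A1(+) cells were checked by 5 gonadal somatic markers (Nr5a1, Wt1, Gata4, Emx2, Lhx9), none of them at 0 in any library.

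The members' summed level was lowest with Dfo and highest at E11.5. It was 1255, 1242 and 1617 TPM in Dfo XY, 1873, 1812 and 2134 TPM in control XY, 2407 and 2409 TPM in control XX, 3050.0 and 3077 TPM in E11.5 XY and 2959 and 2890 TPM in E11.5 XX. The ranges of the 5 groups did not overlap, and the E11.5 groups lay closest to each other. Scaled to a total of 1000000 without Rpph1, the sums were 1642, 1618 and 2008 in Dfo XY, 2322, 2274 and 2520 in control XY, 2594 and 2589 in control XX, 3473 and 3498 in E11.5 XY and 3236 and 3264 in E11.5 XX, so that control XY and control XX came close to each other. For 39 of the 40 members the lowest of the 12 libraries was a Dfo XY library, Aurkb being the exception. For 36 the highest was an E11.5 library, the exceptions being Cdc20, Bub3, Ect2 and Foxm1. Neither count was set against all genes, whose TPM Rpph1 also lowers most in cultured XY. In whole-cell-population RNA like this, fewer dividing cells and less RNA per dividing cell cannot be told apart.

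**Figure D2:**
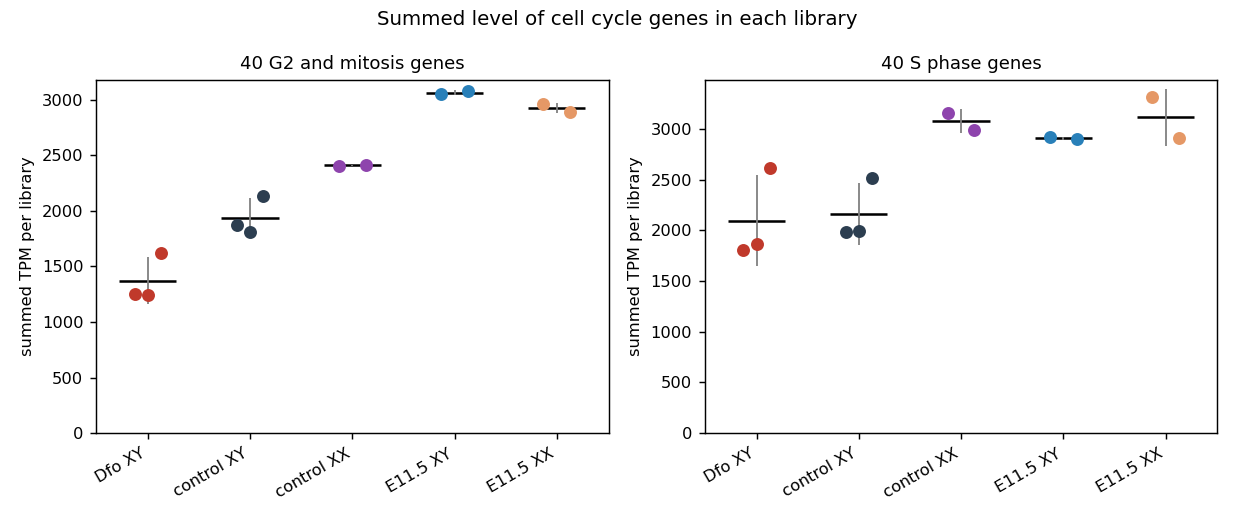
Summed TPM per library of the 40 members (left) and of 40 S phase genes (right), 1 point per library and 1 column per group, with a black bar at the group's mean, a grey line for its SD and y axes that start at 0. The members' sums lie between 1242 and 1617 TPM in Dfo XY, 1812 and 2134 TPM in control XY, 2407 and 2409 TPM in control XX, and 2890 and 3077 TPM at E11.5, while the S phase sums of Dfo XY (1807 to 2614 TPM) and control XY (1979 to 2513 TPM) overlap.

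Dfo XY against control XY asks what iron chelation did to the cultured XY cells. Of the 40 members, 19 fell with Dfo and no member rose, by limma on log2(TPM + 1) over 16133 genes at an adjusted p below 0.05. Of all genes tested, 15.5% were called, 10.5% lower and 4.98% higher, so the members' share of 47.5% was above the background. The members were chosen with earlier results of these data known, so this share is a description and not independent support. The members' median log2 change was -0.50, against -0.17 over all genes tested, and 35 of the 40 lay below the median of all genes. The libraries of the groups did not overlap for 20 of the 40 members, all lower with Dfo. Over the 16133 genes tested they did not overlap for 4272 lower and 1864 higher genes. By role, the median log2 change was -0.72 for the cyclins, CDK1 and its switch and -0.72 for the genes of anaphase and mitotic exit, and between -0.51 and -0.21 for the other roles. Whether the roles differ was not tested.

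The cyclins, CDK1 and its switch had 6 of 7 members lower. Ccnb2, a B-type cyclin, stood at 21.3, 18.3 and 14.2 TPM in Dfo XY and 55.6, 56.9 and 52.8 TPM in control XY. Every Dfo library lay below every control library, and the mean was 17.9 ± 3.53 TPM in Dfo XY and 55.1 ± 2.10 TPM in control XY (SD, n = 3 each). Ccnb2 fell by the largest amount of all members, with a log2 change of -1.59 ± 0.20 (SE), adjusted p = 0.000248. Ccnb1, the main B-type cyclin of mitotic entry, stood at 25.6, 26.5 and 38.1 TPM in Dfo XY and 50.3, 47.6 and 56.6 TPM in control XY. The groups did not overlap, and its log2 change was -0.78 ± 0.15 (SE), adjusted p = 0.00481. Cdc25b, a phosphatase that activates CDK1, stood at 6.35, 4.94 and 6.12 TPM in Dfo XY and 13.8, 14.3 and 14.9 TPM in control XY. Its groups did not overlap either, with a log2 change of -1.18 ± 0.20 (SE), adjusted p = 0.00216. Ccna2, the cyclin of S phase and early mitosis, stood at 39.3, 41.2 and 48.01 TPM in Dfo XY and 59.7, 55.04 and 71.4 TPM in control XY, without overlap, with a log2 change of -0.52 ± 0.11 (SE), adjusted p = 0.00894. Cdc25c, a second such phosphatase, and Cks2, a small partner of CDK1, were lower by -0.72 and -0.48 on the log2 scale (adjusted p = 0.0229 and 0.0303).

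Cdk1 itself, the kinase these proteins act on, did not pass the test. It stood at 20.7, 18.2 and 33.4 TPM in Dfo XY and 24.3, 21.2 and 29.2 TPM in control XY. Dfo replicates 1 and 2 lay below all controls and replicate 3 above all of them. Its log2 change was -0.08 ± 0.21 (SE), adjusted p = 0.832, and the sign turned to above 0 under each scaling tried.

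Ube2c and Plk1 were among the members with the smallest adjusted p. Ube2c, the ubiquitin-conjugating enzyme of the anaphase-promoting complex, stood at 66.6, 60.7 and 64.8 TPM in Dfo XY and 142, 135 and 138 TPM in control XY. The libraries of each group lay within a few TPM of each other and far from the other group, with means of 64.1 ± 3.04 TPM in Dfo XY and 138 ± 3.68 TPM in control XY (SD, n = 3 each). Its log2 change was -1.100 ± 0.09 (SE), adjusted p = 9.97e-06, a 2.14-fold lower level. Plk1, the kinase that matures centrosomes and drives several steps of mitosis, stood at 22.1, 19.4 and 20.7 TPM in Dfo XY and 34.3, 37.2 and 41.8 TPM in control XY. The groups did not overlap, and its log2 change was -0.83 ± 0.12 (SE), adjusted p = 0.000764. Cdc20, which activates the anaphase-promoting complex, stood at 28.5, 26.5 and 32.8 TPM in Dfo XY and 49.2, 53.95 and 43.5 TPM in control XY, with a log2 change of -0.72 ± 0.21 (SE), adjusted p = 0.0368. That call ended in 15 of 23 other settings, 9 of them among the 12 that leave out 1 library, with adjusted p up to 0.396. Pttg1, the securin that CDC20 targets, stood at 19.6, 26.2 and 27.6 TPM in Dfo XY and 42.03, 39.4 and 34.4 TPM in control XY, without overlap, and missed the threshold at -0.65 ± 0.22 (SE), adjusted p = 0.0682.

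Of the mitotic kinases and the transcription factor, Aurka (the spindle-pole Aurora kinase) was lower as well, at 18.2, 13.6 and 18.4 TPM in Dfo XY and 24.00, 25.9 and 36.7 TPM in control XY, with a log2 change of -0.74 ± 0.17 (SE), adjusted p = 0.0115. Aurkb, the Aurora kinase of the chromosomal passenger complex, stood at 31.02, 26.2 and 32.7 TPM in Dfo XY and 31.4, 30.3 and 28.6 TPM in control XY, with overlapping groups. Foxm1, the transcription factor that activates this gene set, stood at 29.2, 28.8 and 36.04 TPM in Dfo XY and 36.8, 33.03 and 38.5 TPM in control XY. The groups overlapped and it was not called (adjusted p = 0.275). Among the partners of Aurkb in the passenger complex, Cdca8 (borealin) was called although its groups overlapped, with a log2 change of -0.61 ± 0.19 (SE), adjusted p = 0.0426. That call ended in 17 of 23 other settings, 11 of them among the 12 that leave out 1 library, with adjusted p up to 0.724. Birc5 (survivin) stood at 58.2, 64.1 and 94.9 TPM in Dfo XY and 88.95, 86.9 and 123 TPM in control XY and was not called, with a log2 change of -0.47 ± 0.20 (SE), adjusted p = 0.134, though it was with the replicate number as a block (adjusted p = 0.0296).

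The spindle checkpoint had 2 of 5 members lower. Bub3, which binds BUB1 and BUBR1 at kinetochores, stood at 36.8, 35.5 and 36.4 TPM in Dfo XY and 54.3, 49.7 and 57.7 TPM in control XY, without overlap, with a log2 change of -0.56 ± 0.11 (SE), adjusted p = 0.00529. Bub1b, which encodes BUBR1, stood at 33.1, 29.3 and 39.4 TPM in Dfo XY and 45.5, 44.5 and 59.2 TPM in control XY. Its log2 change was -0.54 ± 0.14 (SE), adjusted p = 0.0196. Both were lower in every Dfo library than in every control library, while Bub1, Mad2l1 and the checkpoint kinase gene Ttk did not pass the test.

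The centromere and kinetochore genes had 2 of 6 lower. Cenpf, a large protein of the outer kinetochore, stood at 19.7, 19.1 and 25.1 TPM in Dfo XY and 41.7, 37.7 and 55.1 TPM in control XY. The groups did not overlap, with a log2 change of -1.03 ± 0.15 (SE), adjusted p = 0.000688. Cenpa, the histone H3 variant that marks the centromere, stood at 26.1, 21.5 and 26.1 TPM in Dfo XY and 40.4, 39.5 and 45.99 TPM in control XY, with a log2 change of -0.75 ± 0.14 (SE), adjusted p = 0.00457. Cenpe, a kinetochore motor, and the NDC80 complex genes Ndc80, Nuf2 and Spc25, which hold the microtubules, did not pass the test. Of the spindle motors and spindle assembly genes, 4 of 8 were lower: Kif2c (a microtubule depolymerase, -0.72), Tpx2 (an activator of Aurora A, -0.57), Nusap1 (a spindle microtubule binder, -0.57) and Kif20a (a motor of cell cleavage, -0.51), as log2 changes with adjusted p = 0.00656, 0.00738, 0.0131 and 0.0196. Of these, Tpx2 stood at 44.7, 41.9 and 50.4 TPM in Dfo XY and 63.8, 61.7 and 80.3 TPM in control XY, and Kif20a at 29.8, 29.8 and 40.5 TPM in Dfo XY and 44.8, 44.7 and 52.9 TPM in control XY. Kif11, Kif23, Prc1 and Hmmr did not pass, and their groups overlapped. Kif11, the motor that pushes spindle poles apart, stood at 33.2, 31.9 and 41.9 TPM in Dfo XY and 38.8, 37.8 and 46.9 TPM in control XY, and Hmmr, a spindle-binding protein, at 17.6, 19.5 and 29.3 TPM in Dfo XY and 24.6, 26.4 and 23.02 TPM in control XY.

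Mki67, the common marker of cycling cells, stood at 101, 102 and 134 TPM in Dfo XY and 136, 125 and 137 TPM in control XY. Dfo replicates 1 and 2 lay below all controls and replicate 3 between them, and its log2 change was -0.24 ± 0.11 (SE), adjusted p = 0.158. Top2a, the topoisomerase that untangles chromosomes, stood at 97.4, 99.6 and 149.8 TPM in Dfo XY and 119.5, 121 and 161 TPM in control XY. Its replicate 3 was again within the controls, with a log2 change of -0.23 ± 0.16 (SE), adjusted p = 0.384. Neither cleavage furrow gene, Anln or Ect2, passed the test (adjusted p = 0.137 and 0.72).

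**Figure D3:**
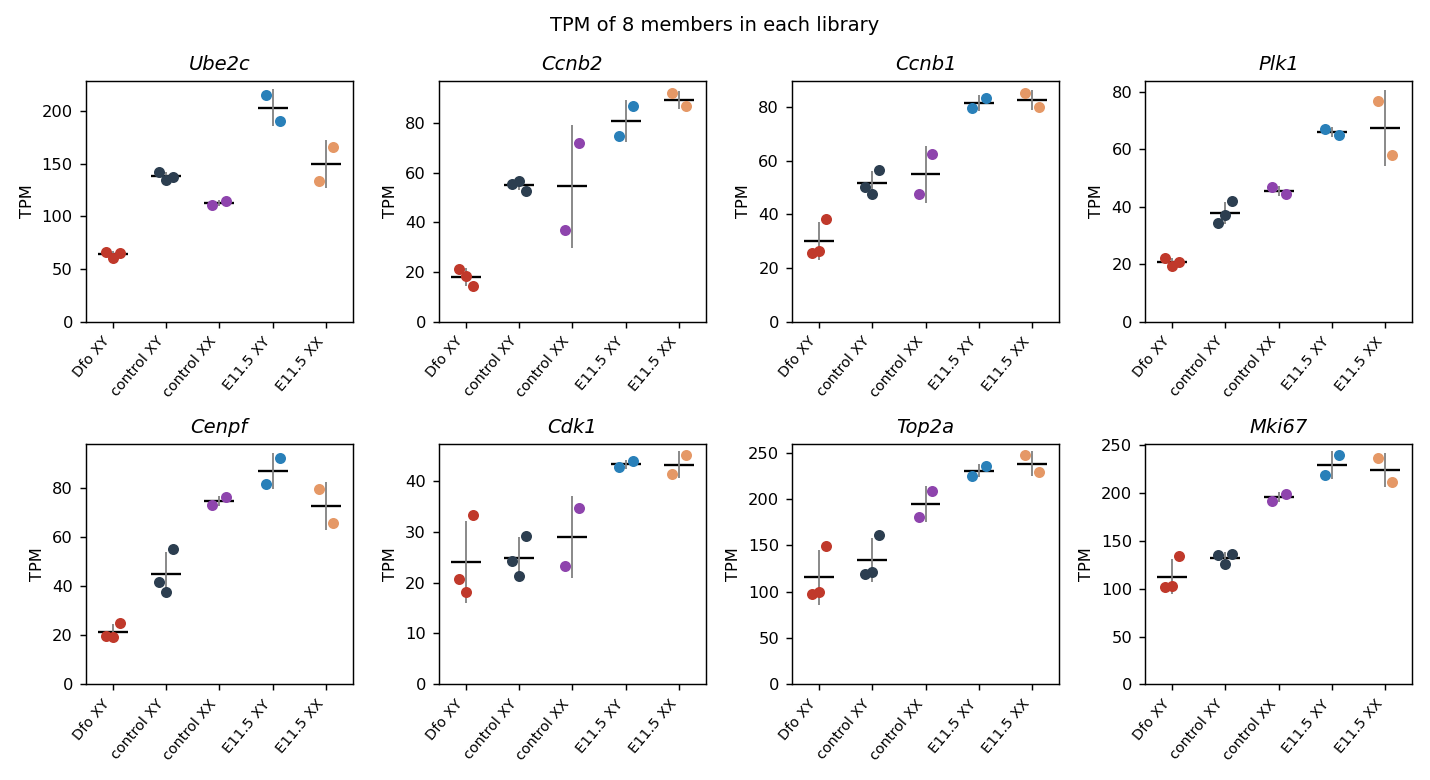
TPM of 8 members in each of the 12 libraries, 1 point per library with a black bar at each group's mean and a grey line for its SD, the groups running from Dfo XY at the left to E11.5 XX at the right and the y axes starting at 0. Ube2c lies between 60.7 and 66.6 TPM in Dfo XY and between 135 and 142 TPM in control XY, while Cdk1 overlaps between the same groups.

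Replicate 3 had the highest summed level of the members in both cultured XY groups. Within same-numbered libraries, the members' median log2 difference of Dfo XY minus control XY was -0.53, -0.49 and -0.41 in replicates 1, 2 and 3, against -0.13, -0.15 and -0.13 for all genes at a mean of at least 5 TPM, and 40, 39 and 36 of the 40 members were lower in the Dfo library. With the replicate number as a block 23 members were lower: the 19 and also Birc5, Kif23, Spc25 and Mad2l1 (adjusted p = 0.0296, 0.00437, 0.00464 and 0.0437). The count of 19 fell to 12 without Dfo XY replicate 2, to 7 when replicates 1 and 2 were averaged in each cultured XY group, and to 3 once the Dfo libraries holding Xist were left out, a setting with 1 Dfo library, taken to vary like the other groups. Those 3 were Ube2c, Ccnb2 and Plk1, with log2 changes of -1.08, -1.88 and -0.83 there (adjusted p = 0.00193, 0.00436 and 0.0281), and these 3 passed the test in each of the settings run. Of all genes tested, 9.20%, 5.16% and 5.32% were called in these 3 settings, against 30%, 17.5% and 7.5% of the members, so without both Xist-holding libraries the members' share was near the background. The other 16 members, none of them called there, had log2 changes between -1.104 (Cdc25b) and -0.16 (Cdca8), with adjusted p from 0.0556 (Cenpf) to 0.724 (Cdca8). Ccnb1 stood at -0.42, Cdc25c at -0.38, Kif2c at -0.45, Bub1b at -0.32 and Kif20a at -0.22 there, each more than 1.5 times smaller than with all libraries, and the uncalled Birc5 at -0.05. Without both libraries the members' median was -0.17, against -0.05 for all genes tested.

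**Figure D4:**
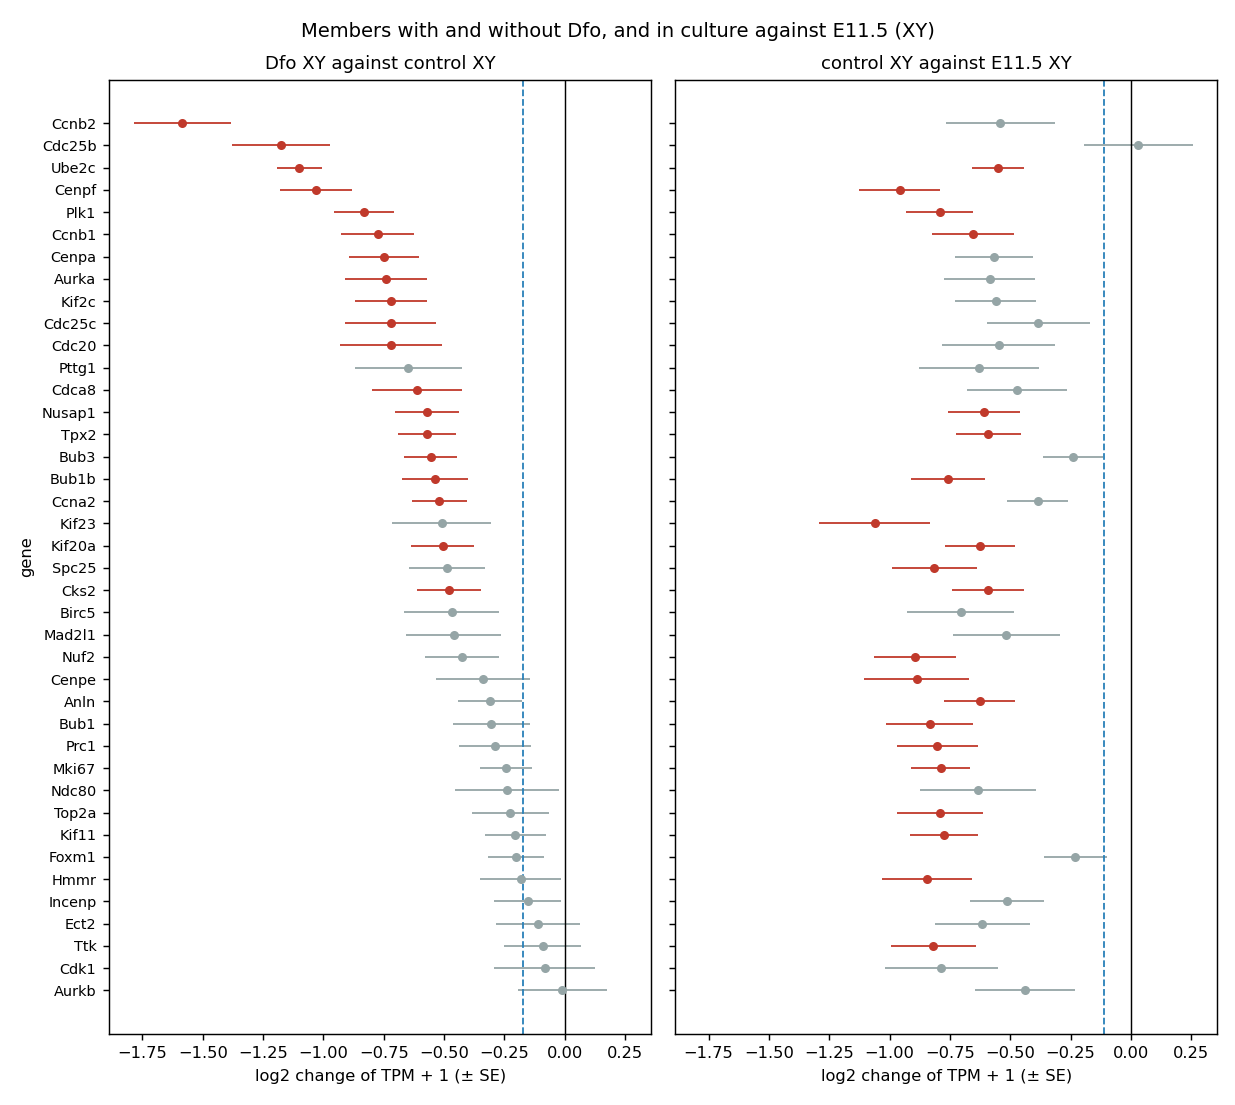
Log2 changes of TPM + 1 of the 40 members with their SE, for Dfo XY against control XY at the left and control XY against E11.5 XY at the right. Red marks called members and grey the others, the black line is 0 and the dashed line is the median of all genes tested (-0.17 at the left, -0.11 at the right). Genes are ordered by their change with Dfo, from Ccnb2 (-1.59) and Cdc25b (-1.18) at the top to Aurkb (-0.01) at the bottom.

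Control XY against E11.5 XY asks how cultured XY cells compare with XY cells at E11.5. Of the 40 members, 21 were lower in culture and no member was higher, while 5.66% of all genes tested were called, 3.04% lower and 2.62% higher. The members' median log2 change was -0.63, against -0.11 over all genes tested. For 39 members every cultured library lay below both E11.5 libraries, the exception being Cdc25b. This count was not set against all genes. Since control XY is also the comparison group for Dfo, its values enter both comparisons.

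Here the spindle and kinetochore genes and the proliferation genes passed the test, with 7 of 8 spindle genes, 4 of 6 centromere and kinetochore genes and both of Mki67 and Top2a lower in culture. Mki67 stood at 136, 125 and 137 TPM in control XY and 219 and 239.8 TPM in E11.5 XY. All cultured libraries lay well below, with a log2 change of -0.79 ± 0.12 (SE), adjusted p = 0.00356. Top2a stood at 119.5, 121 and 161 TPM in control XY and 225 and 235 TPM in E11.5 XY, with a log2 change of -0.79 ± 0.18 (SE), adjusted p = 0.0251. Kif11 stood at 38.8, 37.8 and 46.9 TPM in control XY and 68.7 and 72.9 TPM in E11.5 XY. Its groups did not overlap, and its log2 change was -0.77 ± 0.14 (SE), adjusted p = 0.00918. Nuf2, a part of the NDC80 complex, stood at 22.6, 29.8 and 27.3 TPM in control XY and 52.04 and 47.8 TPM in E11.5 XY, with a log2 change of -0.89 ± 0.17 (SE), adjusted p = 0.0117. Prc1, which bundles microtubules between the parting chromosomes, stood at 34.8, 37.9 and 43.4 TPM in control XY and 63.8 and 72.3 TPM in E11.5 XY. Its log2 change was -0.80 ± 0.17 (SE), adjusted p = 0.0178. Cenpf stood at 41.7, 37.7 and 55.1 TPM in control XY and 81.8 and 92.1 TPM in E11.5 XY, with a log2 change of -0.96 ± 0.17 (SE), adjusted p = 0.00748.

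Among the genes that start and end mitosis, Plk1 stood at 34.3, 37.2 and 41.8 TPM in control XY and 67.1 and 64.8 TPM in E11.5 XY, with a log2 change of -0.79 ± 0.14 (SE), adjusted p = 0.00698. Ube2c stood at 142, 135 and 138 TPM in control XY and 216 and 191 TPM in E11.5 XY. Both were lower in every cultured library, with a log2 change of -0.55 ± 0.11 (SE), adjusted p = 0.0123 for Ube2c. Bub1b stood at 45.5, 44.5 and 59.2 TPM in control XY and 89.2 and 79.3 TPM in E11.5 XY and had a log2 change of -0.76 ± 0.15 (SE), adjusted p = 0.0159. Ccnb1 stood at 50.3, 47.6 and 56.6 TPM in control XY and 79.4 and 83.5 TPM in E11.5 XY, with a log2 change of -0.65 ± 0.17 (SE), adjusted p = 0.0438. Cdk1 stood at 24.3, 21.2 and 29.2 TPM in control XY and 42.7 and 43.9 TPM in E11.5 XY. The groups lay apart but Cdk1 missed the threshold, at -0.79 ± 0.23 (SE), adjusted p = 0.0688. Ccnb2, at 55.6, 56.9 and 52.8 TPM in control XY and 74.8 and 86.8 TPM in E11.5 XY, and Ccna2, at 59.7, 55.04 and 71.4 TPM in control XY and 84.3 and 77.7 TPM in E11.5 XY, missed it too, with log2 changes of -0.54 and -0.39 (adjusted p = 0.17 and 0.0927). Foxm1 was 36.8, 33.03 and 38.5 TPM in control XY and 43.9 and 41.03 TPM in E11.5 XY, with a log2 change of -0.23 ± 0.13 (SE), adjusted p = 0.306. Cdc25b, the member with overlap, was 13.8, 14.3 and 14.9 TPM in control XY and 15.9 and 12.3 TPM in E11.5 XY.

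Side by side, the log2 changes with Dfo and in XY culture were -1.59 and -0.54 for Ccnb2, -1.100 and -0.55 for Ube2c, -0.24 and -0.79 for Mki67, and -0.08 and -0.79 for Cdk1; the difference between the comparisons was not tested. The count of 21 was 7 when only the libraries compared were fitted and 2 (Mki67 and Nuf2) when replicates 1 and 2 were averaged in cultured XY. Of all genes tested, 1.3% and 1.14% were called in these settings, against 17.5% and 5% of the members. Leaving out control XY replicate 1 or 2 gave 5 each time (12.5%), against 1.75% and 1.73% of all genes tested. Leaving out E11.5 XY replicate 1 or 2 left 1 library in that group. The members' median log2 changes were then -0.67 and -0.62, against -0.16 and -0.06 over all genes tested.

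**Figure D5:**
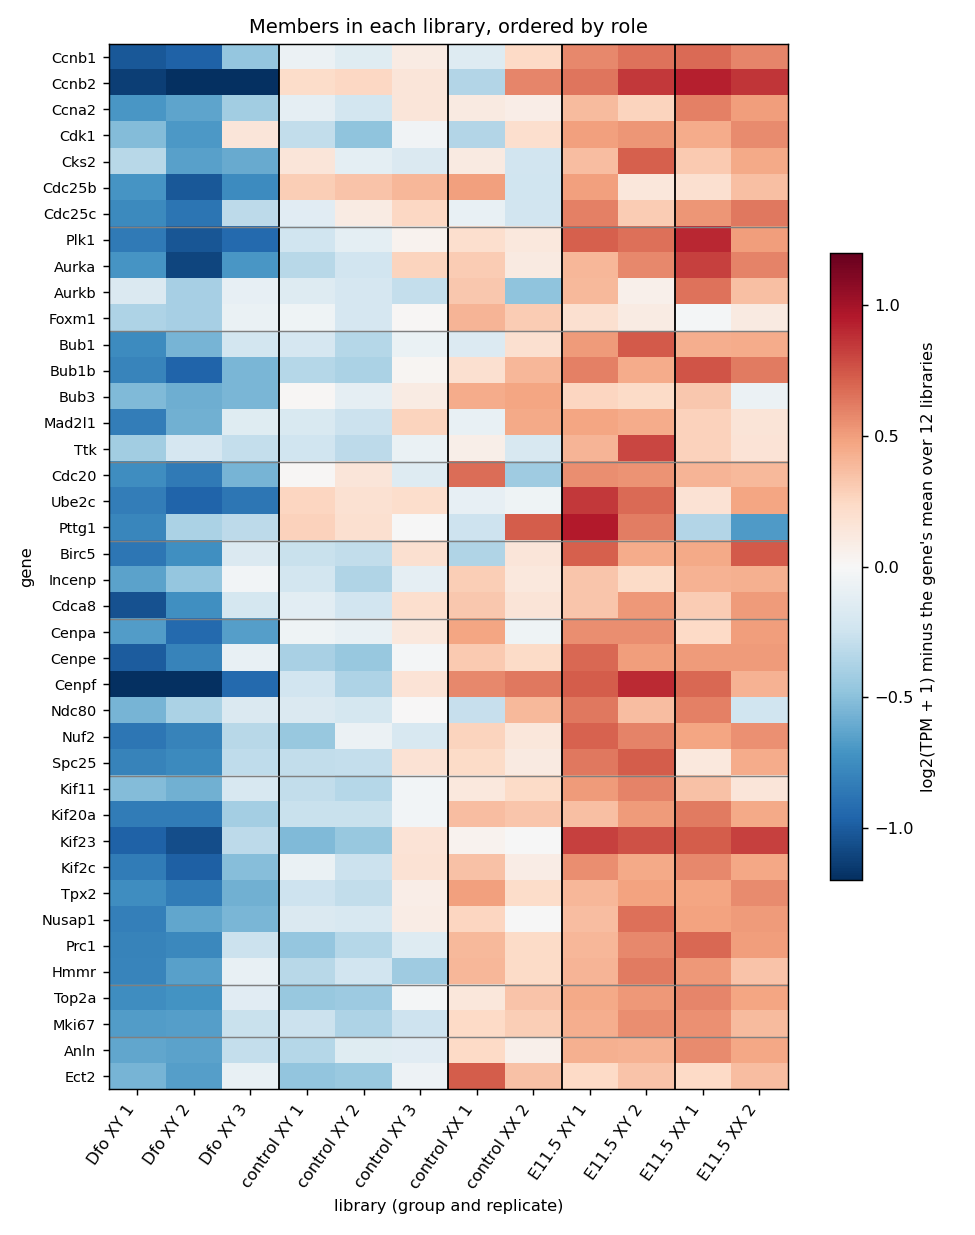
Level of each member in each library as log2(TPM + 1) minus the gene's mean over the 12 libraries, with genes in rows grouped by role and libraries in columns from Dfo XY at the left to E11.5 XX at the right. The Dfo XY columns hold the lowest value of 39 of the 40 members and the E11.5 columns the highest of 36. Neither count was set against all genes.

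Control XX against E11.5 XX asks the same of XX cells. Of the 40 members, 1 was lower, Plk1, while 9.07% of all genes tested were called, 1.71% lower and 7.36% higher. The members' median log2 change was -0.29, against 0.12 over all genes tested, and 36 of the 40 lay below the median of all genes. Plk1 stood at 46.8 and 44.4 TPM in control XX and 76.8 and 57.9 TPM in E11.5 XX. The groups did not overlap, with a log2 change of -0.54 ± 0.15 (SE), adjusted p = 0.0428. Its call ended without a filter, in the fit of the libraries compared, with replicates 1 and 2 averaged in cultured XY (adjusted p = 0.0791), without both Xist-holding Dfo libraries (0.0686, where Ccnb1 was the 1 member called), and when 1 library was left out (adjusted p up to 0.210, without E11.5 XX replicate 1), except for Dfo XY replicate 3, control XY replicate 3 and E11.5 XX replicate 2. Ube2c, at 111 and 115 TPM in control XX and 134 and 166 TPM in E11.5 XX, came next, with a log2 change of -0.40 ± 0.12 (SE), adjusted p = 0.0501. Ccnb2 differed between the cultured libraries, with 37.1 and 71.99 TPM in control XX and 92.1 and 87.01 TPM in E11.5 XX, and a log2 change of -0.78 ± 0.25 (SE), adjusted p = 0.0687. Ccnb1 stood at 47.5 and 62.5 TPM in control XX and 85.4 and 79.99 TPM in E11.5 XX, and Ccna2 at 69.5 and 68.2 TPM in control XX and 98.4 and 91.4 TPM in E11.5 XX. Both lay below their E11.5 values in each cultured library without being called (adjusted p = 0.0655 and 0.0605). Cdk1 stood at 23.3 and 34.6 TPM in control XX and 41.4 and 45.1 TPM in E11.5 XX, without overlap and not called (adjusted p = 0.18). Mki67 stood at 192 and 199 TPM in control XX and 237 and 212 TPM in E11.5 XX, and Top2a at 181 and 209 TPM in control XX and 248 and 229 TPM in E11.5 XX. Cenpf, which was lower in XY culture, stood at 73.2 and 76.2 TPM in control XX and 79.7 and 65.7 TPM in E11.5 XX, with overlapping groups.

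In counts not set against all genes, both cultured XX libraries lay below both E11.5 XX libraries for 25 members and above them for 3. Those 3 were Bub3, at 73.4 and 74.9 TPM in control XX and 67.4 and 51.01 TPM in E11.5 XX, Pttg1, at 28.8 and 57.7 TPM in control XX and 26.8 and 21.2 TPM in E11.5 XX, and Foxm1, at 50.9 and 47.4 TPM in control XX and 37.5 and 41.2 TPM in E11.5 XX. None of the 3 passed the test (adjusted p = 0.148, 0.106 and 0.198). The count of 1 depended on the scaling: 12 members were lower after median-of-ratios scaling, 9 after quantile normalization and 6 without the 50 most abundant genes, and 8 with the replicate number as a block. Of all genes tested, 5.35%, 4.36% and 12.5% were called after median-of-ratios scaling, after quantile normalization and with the block. The members' shares there were 30%, 22.5% and 20%. The test of whether the sex difference in culture differs from that at E11.5 called none of the members by limma. Of all genes tested, 1.33% were called, 1.14% lower and 0.192% higher. At an unadjusted p below 0.05 in that limma test stood 10 of the 40 members and 3355 of the 16133 genes tested. With the replicate block 11 members (27.5%) were called, all with XY minus XX lower in culture, against 10.9% of all genes tested. Most of those genes were lower as well (1565 lower and 193 higher). The median with the block was -0.50 for the members and -0.31 over all genes tested. Same-numbered libraries were checked for pairing only between Dfo XY and control XY. Block counts in all other comparisons therefore rest on unchecked pairing.

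Control XY against control XX compares the sexes in culture. Of the 40 members, 11 were lower in XY, while 25.2% of all genes tested were called, 22.2% lower and 2.97% higher, so the members' share was close to the background. The members' median log2 change was -0.28, against -0.22 over all genes tested. Mki67 stood at 136, 125 and 137 TPM in control XY and 192 and 199 TPM in control XX, with a log2 change of -0.56 ± 0.12 (SE), adjusted p = 0.00703. Cenpf stood at 41.7, 37.7 and 55.1 TPM in control XY and 73.2 and 76.2 TPM in control XX, with a log2 change of -0.74 ± 0.17 (SE), adjusted p = 0.00827. Ect2, the exchange factor that activates RhoA at the cleavage furrow, stood at 17.03, 17.4 and 22.9 TPM in control XY and 40.3 and 30.9 TPM in control XX. All of these were lower in every XY library, with a log2 change of -0.86 ± 0.20 (SE), adjusted p = 0.00834 for Ect2.

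The others named in this comparison were Kif20a (44.8, 44.7 and 52.9 TPM in control XY, 70.5 and 68.6 TPM in control XX), Tpx2 (63.8, 61.7 and 80.3 TPM in control XY, 107 and 88.4 TPM in control XX), Prc1 (34.8, 37.9 and 43.4 TPM in control XY, 63.5 and 56.9 TPM in control XX), Bub3 (54.3, 49.7 and 57.7 TPM in control XY, 73.4 and 74.9 TPM in control XX) and Hmmr (24.6, 26.4 and 23.02 TPM in control XY, 41.4 and 36.9 TPM in control XX). Their log2 changes ran from -0.63 for Prc1 and -0.64 for Hmmr to -0.45 for Bub3, with adjusted p from 0.0167 to 0.0245. Of the cyclins, CDK1 and its switch, none of the 7 was called by limma, and none had an unadjusted p below 0.05. Ube2c stood at 142, 135 and 138 TPM in control XY and 111 and 115 TPM in control XX, higher in every XY library, with a log2 change of 0.29 ± 0.11 (SE), adjusted p = 0.0619. The call of all 11 ended under each of 3 other scalings, which moved the median of all genes from -0.22 to between -0.03 and 0.09, and under which Ube2c, higher in XY, was the 1 member called. Leaving out control XY replicate 1 or 2, or control XX replicate 1 or 2, left 3, 4, 2 and 3 members, and the replicate block gave 20.

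E11.5 XY against E11.5 XX compares the sexes at E11.5. The members' median log2 change was 0.02, against 0.00 over all genes tested, and 1 member was called, Pttg1, higher in XY, while 2.29% of all genes tested were called, 1.2% lower and 1.09% higher. Pttg1 stood at 67.7 and 53.2 TPM in E11.5 XY and 26.8 and 21.2 TPM in E11.5 XX. The groups did not overlap, with a log2 change of 1.297 ± 0.27 (SE), adjusted p = 0.0326. Its call ended when any single E11.5 library was left out (adjusted p between 0.0660 and 0.129) and without Dfo XY replicate 2, control XY replicate 1 or control XY replicate 2 (0.0531, 0.0514 and 0.0550). It also ended in the fit of the libraries compared (0.261), with replicates 1 and 2 averaged in cultured XY (0.0732) and without both Xist-holding Dfo libraries (0.0648); with the replicate block 2 members were called. The pairing behind that block was not checked at E11.5. Pttg1 also varied between the cultured XX libraries, with 28.8 and 57.7 TPM. Ube2c stood at 216 and 191 TPM in E11.5 XY and 134 and 166 TPM in E11.5 XX, without overlap and not called, with a log2 change of 0.44 ± 0.12 (SE), adjusted p = 0.0618.

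Dfo XY against control XX sets the treated XY cells beside untreated XX cells. Of the 40 members, 34 were lower in Dfo XY, while 38.6% of all genes tested were called, 33.8% lower and 4.79% higher. The members' median log2 change was -0.80, against -0.33 over all genes tested. Cenpf stood at 19.7, 19.1 and 25.1 TPM in Dfo XY and 73.2 and 76.2 TPM in control XX. It was 3.42-fold lower, with a log2 change of -1.77 ± 0.17 (SE), adjusted p = 1.55e-05. Bub3 (-1.01), Tpx2 (-1.08), Plk1 (-1.100), Ube2c (-0.81), Kif20a (-1.05), Bub1b (-1.06) and Ccnb2 (-1.496) followed by adjusted p, which ran from 7.56e-05 for Bub3 to 0.000311 for Ccnb2. The 34 became 11, 11 and 18 under the 3 other scalings and 22 when only the libraries compared were fitted. Under median-of-ratios scaling and quantile normalization 27.5% of the members were called, against 19.6% and 18.3% of all genes tested. In the fit of the libraries compared the shares were 55% and 32.5%. With the Xist-holding Dfo libraries left out, which left 1 Dfo library, the members' median was -0.52, against -0.25 over all genes tested. Sex and Dfo cannot be told apart in this comparison.

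Of 60 other G2 and mitosis genes, 8 fell and 2 rose with Dfo, a share of 16.7% that was near the 15.5% of all genes tested, with a median log2 change of -0.22, against -0.50 for the members and -0.17 over all genes tested. Knstrn, a kinetochore partner of astrin, stood at 9.04, 11.48 and 12.1 TPM in Dfo XY and 24.7, 23.2 and 29.3 TPM in control XY, with a log2 change of -1.17 ± 0.14 (SE), adjusted p = 0.000119. Cdca3, a mitotic entry factor, stood at 32.1, 33.7 and 29.6 TPM in Dfo XY and 53.6, 54.5 and 54.8 TPM in control XY. Aspm, a spindle-pole protein, stood at 12.4, 13.4 and 16.1 TPM in Dfo XY and 24.3, 22.6 and 29.2 TPM in control XY. None of these 3 overlapped between the groups, and the log2 changes of Cdca3 and Aspm were -0.75 and -0.82 (adjusted p = 0.00109 and 0.0019). The 2 that rose, named after their values were seen, were G2e3 (a ubiquitin ligase, 0.53) and Ncapg2 (a subunit of condensin II, 0.61), as log2 changes with adjusted p = 0.0237 and 0.0239. Their calls ended in 7 and 6 of 23 other settings, with adjusted p up to 0.239 and 0.118. Between control XY and E11.5 XY, 18 of the same 60 were lower, with a median log2 change of -0.51. Of all genes tested, 3.04% were lower there, with a median of -0.11.

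Of 40 S phase genes, 1 (2.5%) was called with Dfo, lower, against 15.5% of all genes tested. Their median log2 change was -0.05, against -0.17 over all genes tested. That gene was Orc1, a subunit of the origin recognition complex, at 13.9, 14.3 and 15.5 TPM in Dfo XY and 21.6, 20.6 and 32.2 TPM in control XY (log2 change -0.70 ± 0.17 (SE), adjusted p = 0.0169). Of 22 genes listed as G1 cyclins, CDKs and CDK inhibitors, 7 rose and 4 fell, together 50%, against 15.5% of all genes tested. The list also held Btg1, Btg2 and Gadd45a, which are none of these, and the G-type cyclins Ccng1 and Ccng2. The 7 that rose are therefore not all of the named classes. Btg2, an antiproliferative target of p53, stood at 102, 101 and 113 TPM in Dfo XY and 35.6, 33.4 and 28.8 TPM in control XY, with a log2 change of 1.67 ± 0.17 (SE), adjusted p = 3.48e-05. Gadd45a, a stress-induced gene that restrains entry into mitosis, stood at 54.9, 58.7 and 48.6 TPM in Dfo XY and 24.1, 17.8 and 27.8 TPM in control XY, with a log2 change of 1.201 ± 0.16 (SE), adjusted p = 0.00043. Both were higher in every Dfo library. Ccnd1, the G1 cyclin D1, stood at 23.7, 20.9 and 14.99 TPM in Dfo XY and 55.7, 51.8 and 57.1 TPM in control XY, with a log2 change of -1.44 ± 0.15 (SE), adjusted p = 4.28e-05.

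Of 19 regulators of the E2F, MYB and DREAM group, 2 rose and 2 fell with Dfo, together 21.1%, against 15.5% of all genes tested. Rb1, the retinoblastoma protein that holds E2F factors, stood at 15.3, 14.4 and 18.8 TPM in Dfo XY and 9.48, 8.78 and 7.16 TPM in control XY, with a log2 change of 0.86 ± 0.19 (SE), adjusted p = 0.00935. Tfdp2, a partner of E2F factors, stood at 42.9, 47.95 and 48.02 TPM in Dfo XY and 26.7, 33.1 and 37.1 TPM in control XY, with a log2 change of 0.52 ± 0.12 (SE), adjusted p = 0.0146. Rbl1, which encodes p107 of the DREAM complex, stood at 12.5, 11.96 and 12.8 TPM in Dfo XY and 22.1, 15.96 and 21.6 TPM in control XY, with a log2 change of -0.63 ± 0.14 (SE), adjusted p = 0.0118. Rb1 and Tfdp2 were higher, and Rbl1 lower, in every Dfo library. The other gene that fell was E2f4, a repressor E2F of the DREAM complex, at 69.1, 82.5 and 74.3 TPM in Dfo XY and 94.4, 96.05 and 104 TPM in control XY, named after its values were seen. With the Xist-holding Dfo libraries left out, Aspm, G2e3, Orc1, Rb1, Tfdp2, Rbl1 and E2f4 lost their calls.

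Markers of cell types moved beside these genes. The summed level of the 5 gonadal somatic markers was 468, 534 and 475 TPM in Dfo XY, 619, 638 and 756 TPM in control XY, 1307 and 1229.6 TPM in control XX, 849 and 731 TPM in E11.5 XY and 1125 and 949 TPM in E11.5 XX. Of the 5, Wt1, Emx2 and Lhx9 were lower with Dfo (-0.38, -0.71 and -0.48 on the log2 scale, with adjusted p = 0.00555, 0.00865 and 0.0496). Without the Xist-holding Dfo libraries none of these 3 was called (adjusted p = 0.0680, 0.175 and 0.358), and the call of Lhx9 ended in each of the 12 fits that left out 1 library. The 6 erythroid markers summed to 3066, 2232 and 1205 TPM in Dfo XY, 2057, 2354 and 302 TPM in control XY, 204 and 166 TPM in control XX, 3084 and 2359 TPM in E11.5 XY and 1782 and 1248 TPM in E11.5 XX, with a wide spread among the cultured XY libraries. None of the 6 was called with Dfo by limma, with 1 at an unadjusted p below 0.05. The 5 macrophage markers ranged between 75.4 and 108 TPM in Dfo XY, 47.5 and 93.1 TPM in control XY, 29.6 and 40.2 TPM in control XX, 14.6 and 29.8 TPM in E11.5 XY and 23.8 and 24.8 TPM in E11.5 XX. Of the 6 germ cell markers, Kit, which other cells also express, held 14.3 to 20.9 TPM over all libraries. The other 5 summed to 0.64 to 3.72 TPM in Dfo XY, 5.01 to 8.69 TPM in control XY, 3.14 to 4.37 TPM in control XX, 7.41 to 18.2 TPM in E11.5 XY and 15.1 to 17.3 TPM in E11.5 XX, with Dazl at 0 in 7 of the 12 libraries. None of the 6 was called with Dfo by limma, with 1 at an unadjusted p below 0.05, and Pou5f1 was lower in control XX than in E11.5 XX (-2.18 ± 0.51 (SE), adjusted p = 0.0209). The 5 mesenchyme markers ranged between 531 and 610.0 TPM in Dfo XY, 772 and 867 TPM in control XY, 1189 and 1280 TPM in control XX, 981 and 1087 TPM in E11.5 XY and 1117 and 1258 TPM in E11.5 XX, and 3 of the 5 were lower with Dfo. The coelomic epithelium markers, 5 genes of the layer from which gonadal somatic cells arise, ranged between 154 and 188 TPM in Dfo XY and between 299.8 and 366 TPM in control XY, and 3 of the 4 tested were lower with Dfo (Aldh1a2, Upk3b and Lrrn4), of which Aldh1a2 kept its call without the Xist-holding libraries (adjusted p = 0.0512 and 0.0560 for Upk3b and Lrrn4). The 5 endothelial markers ranged between 80.9 and 138 TPM in Dfo XY and between 57.5 and 119 TPM in control XY, and the 5 neural crest and neuron markers between 42.5 and 68.4 TPM in Dfo XY, between 51.9 and 129.5 TPM in control XY and between 20.3 and 28.2 TPM in control XX. Of these 5, Tubb3 and Stmn2 were lower and Th higher with Dfo, Tubb3 alone keeping its call without the Xist-holding libraries, and all 5 were higher in control XY than in control XX. The 5 mesonephric epithelium markers ranged between 52.05 and 84.6 TPM in Dfo XY, 98.7 and 120.7 TPM in control XY and 52.03 and 73.0 TPM in control XX. Of these, Pax2 and Epcam were lower with Dfo, also without the Xist-holding libraries (adjusted p = 0.0163 and 0.0499), while the call of Epcam ended with the replicate block (0.0585) and the calls of Pax2 and Epcam ended in 10 and 16 of 23 other settings, and 3 of the 5 were higher in control XY than in control XX. The part of these cell types in the members' levels was not tested.

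Some members share sequence or position with other genes, so that their TPM is less certain. Ccna2, Cdc20, Cdc25b, Ube2c, Cdca8, Kif20a, Nusap1 and Prc1 have exons that overlap a gene on the opposite strand in GENCODE M21. The library kit keeps strand, but the sources used here do not say whether the counting used it. Kif2c and Ndc80 have transcripts of near-identical sequence elsewhere, with 92.3% identity to Gm4961 over 1244 bases for Kif2c and 92.9% identity to 2700099C18Rik over 591 bases for Ndc80; these genes reached 6.33 TPM and 41.9 TPM.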

How the data were processed

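The deposited values are TPM per gene symbol, 1 file per library, which the authors made from libraries of total RNA (SMART-Seq Stranded Kit, per the labels' protocols). Tools named in the submitters' processing notes are STAR 2.7.10b, RSEM and R 4.1.2, with the mm10 build; the sources used here do not give the annotation, filters or strand setting. TPM keeps no depth, so no counting interval was computed. TPM was taken to log2(TPM + 1), which understates changes of low genes. The 16133 genes that reached 1 TPM in 2 or more libraries were fitted by limma 3.58.1 (R 4.3.3), with a variance trend, all 12 libraries and 1 coefficient per group. Benjamini-Hochberg adjustment ran over all genes of a contrast, and a gene was called below 0.05. Adjusted p-values are limma's from this fit unless another setting is named. The fit was tested on simulated data.

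The 40 members, the gene lists and the alternatives were chosen with earlier results of these data known. Values per library are given for the 8 called members with the smallest adjusted p in each contrast and for Cdk1, Ccnb1, Ccna2, Plk1, Mki67, Top2a and Foxm1, with other members added as examples of their role, and for the other lists for the 3 called genes with the smallest adjusted p with Dfo. Promoters came from RefSeq on GRCm38.p6, and 30 of the 33 windows ended in a GENCODE M21 transcript of their gene. Near copies were found with minimap2 2.31-r1302 (at least 300 bases at 90% identity).

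Same-numbered Dfo XY and control XY libraries were checked for pairing by the correlation across 10868 genes of their deviations from the group means, which was 0.25, 0.13 and 0.35 for replicates 1, 2 and 3. Each was above 0.1, so the numbers were taken to pair the libraries. Replicates 1 and 2 also had 0.18 and 0.14 across numbers, so the pairing rests mainly on replicate 3. The block covered all groups, while pairing was checked only between Dfo XY and control XY. The fit without the block is the one reported.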

Additional observations from a re-analysis of the deposited data

How the results depend on the processing

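The members called numbered 19 for Dfo XY against control XY, and stayed within 1.5 times that under both other pseudocounts, both other filters, the 3 other scalings, the fit of the libraries compared and the replicate block (23). They were 7 with replicates 1 and 2 averaged in cultured XY, 3 with the Xist-holding Dfo libraries left out, and 12 to 28 leaving out 1 library. For control XY against control XX (11), the counts were 1, 1 and 1 after median-of-ratios scaling, quantile normalization and removal of the 50 most abundant genes, 20 with the replicate block, 3 with averaging and 2 to 15 leaving out 1 library. For Dfo XY against control XX (34) they were 11, 11 and 18 under those scalings, 22 in the fit of the libraries compared, 13 without both Dfo libraries and 29 to 35 leaving out 1 library.

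For control XY against E11.5 XY (21) they were 7 in the fit of the libraries compared, 2 with averaging and 3 to 26 leaving out 1 library. For control XX against E11.5 XX (1) they were 2 with pseudocounts of 0.1 and of 5, 0 without a filter, 4 with TPM of at least 5, 12, 9 and 6 under the scalings, 0 in the fit of the libraries compared, 8 with the replicate block, 0 with averaging and 0 to 7 leaving out 1 library. For E11.5 XY against E11.5 XX (1) they were 0 in the fit of the libraries compared, 2 with the replicate block, 0 with averaging, 0 without both Dfo libraries and 0 to 1 leaving out 1 library. For the interaction (0 by limma, with 10 at an unadjusted p below 0.05) they were 11 with the replicate block and 0 to 2 leaving out 1 library. Of the 16133 genes tested, 3355 were at an unadjusted p below 0.05 by limma for the interaction. Pairing by replicate number was checked only between Dfo XY and control XY, so the block counts of the other comparisons rest on unchecked pairing. The share of all genes tested that was called also moved with the setting. These counts alone do not place the members against that share. The cause of the shifts in these counts was not tested.

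Cdk1 with Dfo changed sign, to 0.0486, 0.0282 and 0.00983 on the log2 scale under the 3 scalings and 0.42 with the Xist-holding Dfo libraries left out, and lay between -0.33 and 0.0864 leaving out 1 library. There Top2a was at 0.17 and Mki67 at 0.0200. Cks2 in Dfo XY against control XX was at 0.0202 after median-of-ratios scaling.

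The limits are few libraries per group, unknown depth, a large share of Rpph1 that moves with the groups, Xist in 2 libraries labelled XY, and no Dfo group in XX. With 2 E11.5 libraries of each sex, the calls against E11.5 rest on a spread shared with the cultured groups.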
